A study of Rattus norvegicus with 14 samples.

Results

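Skeletal muscle genes were followed across dissected rat lateral prostate, a gland whose own muscle is smooth muscle. The set was a given list of 35 genes of the sarcomere, its calcium handling and its energy supply, of which 31 had a probe set and are the members described here, among 16134 named genes on the arrays. The other 4 listed genes, Myh1, Atp2a1, Cacna1s and Tcap, were not analysed here. The tissue came from 14 male Noble rats aged 48 weeks, with 1 Affymetrix array per rat. Values are deposited log2 RMA values, in which a difference of 1 is a 2-fold difference, and the level of one gene was not set against the level of another.

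The 4 rats of the T+E2 group carried Silastic capsules with 30 mg testosterone and 15 mg estradiol for 32 weeks. In the T+lowBPA group, 3 rats carried 30 mg testosterone with 15 mg bisphenol A (BPA), which is used to make plastics and binds estrogen receptors weakly. The 3 rats of the T+highBPA group had 30 mg testosterone with 320 mg BPA. The 4 control rats had empty capsules. All 3 treated groups received testosterone, and no testosterone-only group was analysed here, so a difference from control holds both compounds. Across genes, the correlation between arrays was 0.979 to 0.991 within T+E2, 0.986 to 0.991 within T+lowBPA, 0.982 to 0.989 within T+highBPA and 0.956 to 0.994 within control. The prostate secretory genes Msmb and Pbsn were at 12.49 to 13.20 and 12.12 to 13.07 on every array. The mean of 7 ventral prostate secretory genes was 11.31 in T+E2 replicate 2, 9.04 to 11.47 in T+highBPA and 11.37 in control replicate 4, while the remaining arrays lay at 5.44 to 7.46. Control replicate 4 had the lowest correlations with the other controls, and the tests with control are therefore also given without it.

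Skeletal muscle contracts in sarcomeres, in which thick filaments of myosin pull on thin filaments of actin. Calcium released from the sarcoplasmic reticulum binds troponin on the thin filament and starts the pull. Fast and slow fibres build the same structure from different myosin, troponin and light chain isoforms, and slow isoforms are largely shared with the heart. In whole tissue, fewer muscle cells and less of these RNAs per cell cannot be told apart.

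The members varied widely between rats of the same group, and most of them varied together. Their mean was 5.97, 7.31, 8.28 and 7.35 in T+E2 replicates 1 to 4. It was 6.60, 6.34 and 8.93 in T+lowBPA, 5.90, 5.82 and 7.71 in T+highBPA, and 6.37, 8.77, 8.46 and 7.65 in control. All 4 groups overlapped, and each held arrays with a low mean beside 1 or more with a high one. T+lowBPA replicate 3 was the highest array for 19 of the 31 members and control replicate 2 for 7. T+highBPA replicates 1 and 2 and T+E2 replicate 1 had the lowest means.

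**Figure D1:**
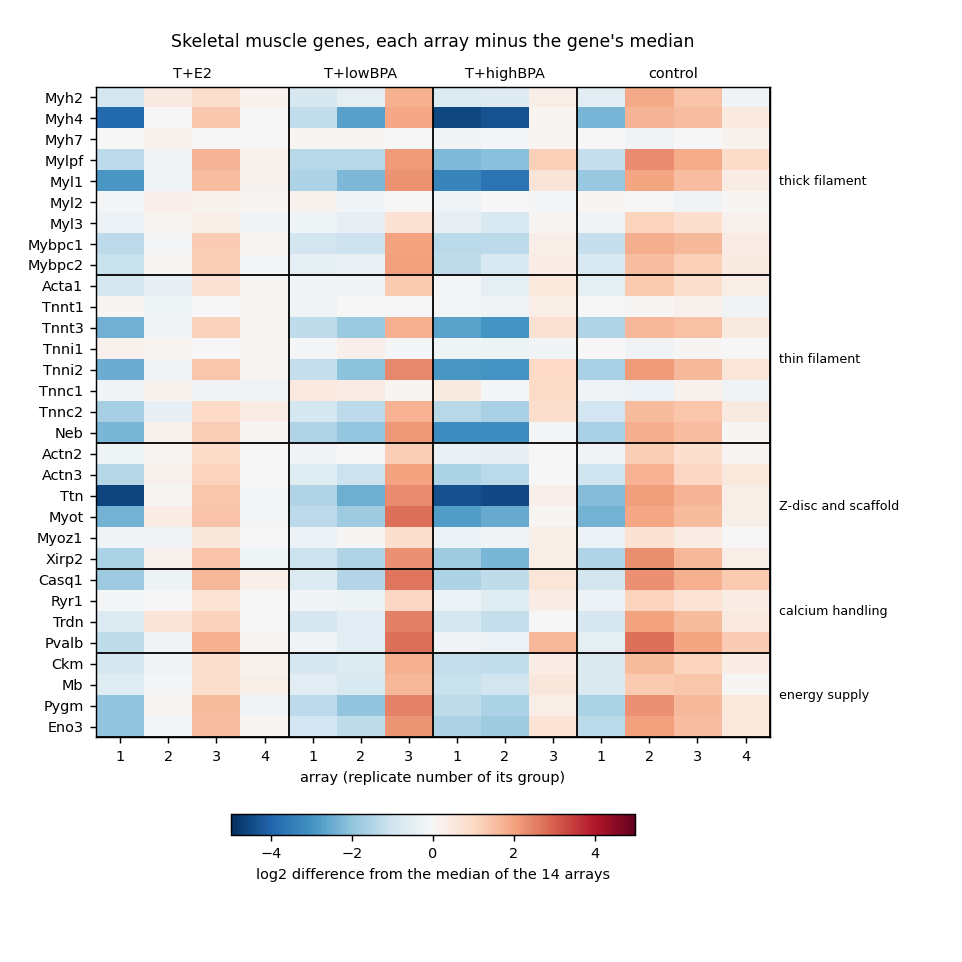
Heat map of the 31 members (rows, ordered by role) over the 14 arrays (columns, by group and replicate number). Colour gives the log2 difference of an array from the gene's median over the 14 arrays, red higher and blue lower. T+lowBPA replicate 3 and control replicates 2 and 3 are red in most rows, T+E2 replicate 1 and T+highBPA replicates 1 and 2 are blue, and the rows of Myh7, Myl2, Tnnt1 and Tnni1 are pale.

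The heat map of the members shows the same columns high or low from the thick filament down to energy supply. The spread within groups was measured as the residual SD, the SD of the arrays around their group means. Its median was 1.21 over the members and 0.166 over all named genes. The residual SD was above 1 for 20 of the 31 members, and for 83 of the 16134 named genes. Of the members, 21 were among the 100 genes with the largest residual SD. The 20 members above 1 spanned 2.78 to 6.95 on the log2 scale between their lowest and highest arrays, which is 6.87-fold to 124-fold. No detection calls were used here, so a fold against a dim array may be understated. For each of these 20, T+lowBPA replicate 3 and control replicate 2 were among the 3 highest arrays, and T+E2 replicate 1 and T+highBPA replicate 2 were among the 5 lowest. The group explained a median of 20.5% of a member's variance over the arrays, against 32.5% for all named genes. The share is not adjusted for the number of groups, so part of it arises without any group effect.

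Among thick filament genes, Myh4 encodes the fast type IIB myosin heavy chain. It was at 5.67, 9.57, 10.94 and 9.58 in T+E2, 8.33, 6.85 and 11.52 in T+lowBPA, 5.01, 5.23 and 9.69 in T+highBPA, and 7.24, 11.28, 11.11 and 10.07 in control. Every group held both a low and a high array, so the groups overlapped throughout. Its highest array was 91.1-fold above its lowest. Myh2, the fast type IIA heavy chain, spanned 4.81 to 7.59, and Myl1 and Mylpf, the fast essential and regulatory light chains, spanned 5.17 to 11.12 and 6.39 to 10.95. The myosin-binding proteins C, Mybpc1 of slow and Mybpc2 of fast fibres, spanned 6.28 to 9.61 and 4.90 to 8.20. Mybpc1 is also expressed in fast fibres, and it followed the other members closely. Heavy chain genes are near-identical in parts, and probe sequences were not used here, so the split of signal between Myh2, Myh4 and their relatives is uncertain.

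The slow heavy chain Myh7, shared by slow fibres and the heart, did not follow Myh4. It was at 5.84, 6.04, 5.86 and 5.87 in T+E2, 5.98, 5.96 and 5.86 in T+lowBPA, 5.75, 5.79 and 5.96 in T+highBPA, and 5.84, 5.68, 5.87 and 6.03 in control. Its whole range over the 14 arrays was 0.36, and control replicate 2, which ranked second for Myh4, was the lowest for Myh7. Myl2, the slow and cardiac regulatory light chain, spanned 0.43. Myl3, the slow and ventricular essential light chain, spanned 1.85 and was the slow isoform that moved with the fast ones.

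Thin filament genes divided in the same way. The inhibitory subunit of fast troponin, Tnni2, was at 5.78, 8.12, 9.64 and 8.38 in T+E2, 7.05, 6.20 and 10.67 in T+lowBPA, 5.35, 5.28 and 9.23 in T+highBPA, and 6.63, 10.37, 9.86 and 8.84 in control. Its slow counterpart Tnni1 was at 5.83, 5.75, 5.62 and 5.69 in T+E2, 5.54, 5.88 and 5.57 in T+lowBPA, 5.38, 5.37 and 5.48 in T+highBPA, and 5.61, 5.42, 5.67 and 5.61 in control. T+lowBPA replicate 3 was the highest array for Tnni2 and replicate 2 of that group the highest for Tnni1. The tropomyosin-binding subunit of fast fibres, Tnnt3, spanned 4.78 and that of slow fibres, Tnnt1, spanned 0.57. For the calcium-binding subunit, fast Tnnc2 spanned 3.38, and Tnnc1, the slow and cardiac form, spanned 1.26 with its highest value, 6.54, in T+highBPA replicate 3. Neb, the giant protein that runs along the thin filament, spanned 5.29, and Acta1, skeletal α-actin, spanned 2.19 at values of 9.17 to 11.35.

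In the scaffold, Ttn had the widest range of the members. Titin spans the sarcomere from Z-disc to M-band and acts as its molecular spring. Ttn was at 4.15, 8.83, 10.13 and 8.68 in T+E2, 7.25, 6.32 and 11.10 in T+lowBPA, 4.36, 4.25 and 8.99 in T+highBPA, and 6.58, 10.86, 10.47 and 9.09 in control. The 3 values below 5 came from T+E2 replicate 1 and T+highBPA replicates 1 and 2, and the highest array stood 124-fold above the lowest. Myot, a Z-disc actin-binding protein, spanned 5.53 and Xirp2, an actin-binding repeat protein, 4.60. The Z-disc cross-linkers differed: Actn3, the α-actinin of fast fibres, spanned 3.59, and Actn2, found in all striated fibres, 1.65. Myoz1, a Z-disc protein that binds calcineurin, spanned 1.16.

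Calcium handling and energy supply genes moved with the fast filament genes. Pvalb, parvalbumin, is the calcium buffer of fast fibres and spanned 6.26 to 10.30, which is 16.4-fold. Casq1, the calcium store protein of the sarcoplasmic reticulum, spanned 4.46, Trdn, which anchors it, 3.72, and Ryr1, the calcium release channel, 1.70. Eno3, the muscle enolase, was at 7.16, 9.02, 10.68 and 9.24 in T+E2, 8.19, 7.85 and 11.35 in T+lowBPA, 7.57, 7.34 and 9.80 in T+highBPA, and 7.79, 11.18, 10.69 and 9.65 in control. It gave the same array order as Myh4 at the top, with T+lowBPA replicate 3 first and control replicate 2 second. Pygm, muscle glycogen phosphorylase, spanned 4.45, Ckm, muscle creatine kinase, 2.99, and Mb, the oxygen-binding myoglobin, 2.80.

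**Figure D2:**
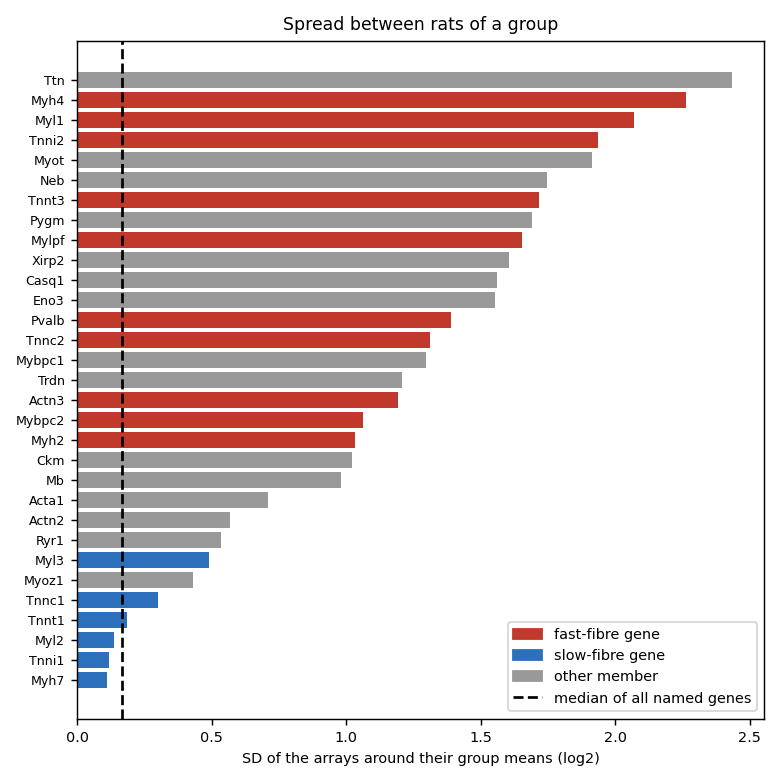
Residual SD of each member (bars, log2), the spread of the arrays around their group means. Red bars are fast-fibre genes, blue bars slow-fibre genes and grey bars other members, and the dashed line is the median of all named genes, 0.166. All 10 fast-fibre genes lie above 1 and all 6 slow-fibre genes below 0.5.

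The plot of residual SD by gene shows how far the fibre-type isoforms stood apart. The 10 measured fast-fibre genes had a median residual SD of 1.52, from 1.03 in Myh2 to 2.26 in Myh4. The 6 slow-fibre genes had a median of 0.160, from 0.110 in Myh7 to 0.488 in Myl3, close to the median of all named genes. This is a description of these arrays with no test. Of the 6 slow-fibre genes, 2 lay below the 0.25 quantile of mean value over all named genes, where a small change is harder to see. The means of all 6 over the 14 arrays, 4.77 to 6.37, lay below the lowest array median, 6.38. Of the fast-fibre genes, Myh2 and Mybpc2 also did, at 5.87 and 6.31. The part of low signal in the narrow spread of the slow-fibre genes was not tested.

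Likeness was measured as Pearson's correlation, over the 14 arrays, of a gene's deviations from its group means with those of the mean of the other members. The points share the array and its dissection, and no p is given. The correlation was above 0.9 for 25 of the 31 members and above 0.95 for 21. It was 0.997 for Eno3, 0.996 for Neb and 0.991 for Myot, and 0.964 for Myh4. The slow isoform Myl3 reached 0.943. The remaining slow isoforms were at 0.33 for Tnnt1, 0.17 for Tnnc1, -0.00 for Myl2, -0.05 for Myh7 and -0.42 for Tnni1. Without the 2 arrays farthest from the median, T+lowBPA replicate 3 and T+highBPA replicate 2, Eno3 stayed at 0.997, Myh4 was at 0.963 and Tnni1 at -0.37.

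**Figure D3:**
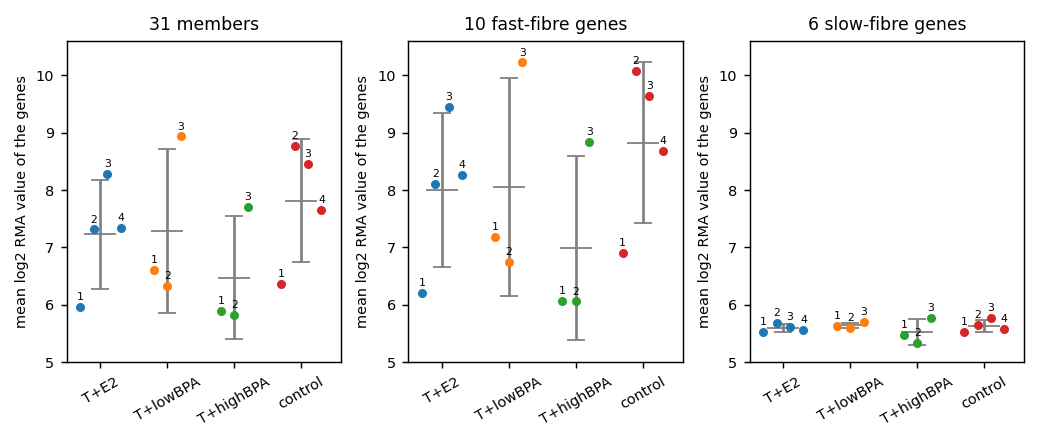
Mean log2 RMA value of all 31 members (left), the 10 fast-fibre genes (middle) and the 6 slow-fibre genes (right) in each array. Points are arrays with their replicate number, and grey bars give the group mean and SD. The fast-fibre mean runs from 6.06 to 10.22 and the slow-fibre mean from 5.34 to 5.78.

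In the plot of list means by array, the fast-fibre mean was 8.01 ± 1.34 in T+E2 (n = 4), 8.05 ± 1.90 in T+lowBPA (n = 3), 6.99 ± 1.60 in T+highBPA (n = 3) and 8.83 ± 1.40 in control (SD, n = 4). The slow-fibre mean was 5.60 ± 0.07 in T+E2, 5.64 ± 0.05 in T+lowBPA, 5.53 ± 0.23 in T+highBPA and 5.63 ± 0.10 in control. In both lists the ranges of the groups overlapped. For the fast-fibre mean, 2 of the 3 T+highBPA arrays, at 6.06 each, lay below the lowest control array at 6.91, and the third, at 8.83, lay within the control range.

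The DNA before the start of 4 members is shown because most members moved together. Among the heavy chain members, Myh4 had the widest spread and Myh7 the narrowest. A link between these sequences and the spread was not tested. Myogenic factors of the MyoD family bind E-boxes such as CAGCTG, MEF2 factors bind an A and T rich site, serum response factor binds the CArG box, and TEAD factors bind the M-CAT motif CATTCC. Sequences are from RefSeq (GRCr8), 250 bases that end just before the first start the table lists, written 5′ to 3′ on the gene's strand, with motif matches in capitals. Myh4 is from chr10:52421898-52422147 (+ strand), Myh7 from chr15:32438195-32438444 (- strand), Acta1 from chr19:68784195-68784444 (- strand) and Ckm from chr1:88189211-88189460 (+ strand). For Myh7 and Ckm the listed start lies inside the annotated span of the gene, so an outer start has another window.
Myh4: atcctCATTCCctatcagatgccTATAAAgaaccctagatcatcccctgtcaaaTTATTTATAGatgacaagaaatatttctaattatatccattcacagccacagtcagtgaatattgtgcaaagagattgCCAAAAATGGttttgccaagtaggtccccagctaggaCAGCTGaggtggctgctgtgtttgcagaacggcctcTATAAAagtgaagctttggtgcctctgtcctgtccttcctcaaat
Myh7: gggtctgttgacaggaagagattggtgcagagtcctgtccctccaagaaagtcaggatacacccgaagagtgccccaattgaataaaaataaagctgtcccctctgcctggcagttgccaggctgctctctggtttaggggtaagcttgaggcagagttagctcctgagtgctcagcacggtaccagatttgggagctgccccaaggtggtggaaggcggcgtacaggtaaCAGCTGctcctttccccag
Acta1: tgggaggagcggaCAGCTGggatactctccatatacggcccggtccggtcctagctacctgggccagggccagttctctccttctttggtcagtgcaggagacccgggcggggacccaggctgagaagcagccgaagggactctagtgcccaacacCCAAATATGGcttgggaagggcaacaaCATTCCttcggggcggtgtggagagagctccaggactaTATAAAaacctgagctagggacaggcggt
Ckm: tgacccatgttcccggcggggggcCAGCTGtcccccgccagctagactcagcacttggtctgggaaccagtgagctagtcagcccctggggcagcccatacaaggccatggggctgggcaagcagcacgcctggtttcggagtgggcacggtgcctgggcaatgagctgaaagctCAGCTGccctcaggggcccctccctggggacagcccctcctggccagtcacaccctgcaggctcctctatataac

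In the Myh4 window, counted back from the start, the M-CAT motif begins at -245, the MEF2 site at -196, the CArG box at -118 and CAGCTG at -81. A TATAAA on the other strand overlaps the MEF2 site. The Myh7 window holds CAGCTG at -19 and none of the other 4 motifs. Acta1 has CAGCTG at -237, a CArG box at -94, CATTCC at -67 and TATAAA at -29. Of the 31 members, 27 had a window. On either strand, CAGCTG occurred in 8 of the 27 (29.6%), against 11.9% of the windows of 27456 genes. The MEF2 site occurred in 4 (14.8%, against 1.74% of all windows), the CArG box in 3 (11.1%, against 1.5%), CATTCC in 5 (18.5%, against 11.8%) and TATAAA in 8 (29.6%, against 13.1%). CAGCTG was in 2 of 9 fast-fibre windows and in 1 of 4 slow-fibre windows. These matches are a description, and binding was not measured.

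Group comparisons asked whether hormone treatment or BPA dose moved the members. Each gene was fitted with limma over all 14 arrays, and a gene was called when its p, adjusted by Benjamini-Hochberg over all 16134 named genes, was below 0.05. The 3 comparisons with control share the control arrays. In T+E2 against control 0 of the 31 members were called, where 3.23% of all named genes were. In T+lowBPA against control 0 members were called, against 0.0186% of all named genes. In T+highBPA against control 0 members were called, against 0.0062%. Without control replicate 4, 0 members were called in each of the 3.

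**Figure D4:**
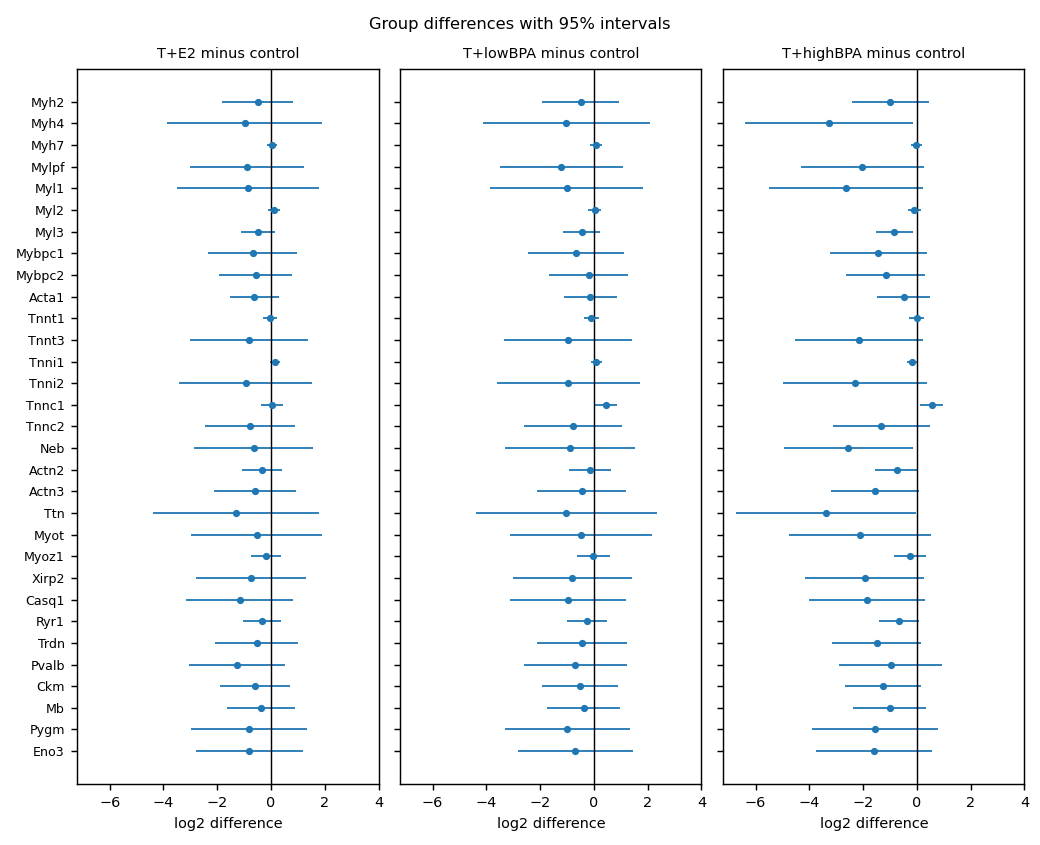
Difference of each member from control (points, log2, treated group minus control) with its 95% interval (lines) for T+E2, T+lowBPA and T+highBPA, from the limma fit. Most points lie left of 0 in all 3 panels, and the intervals of the fast-fibre genes are several log2 units wide.

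In T+E2 against control, 27 of the 31 members were lower and 4 higher, with a median difference of -0.59 and single differences from -1.30 in Ttn to 0.15 in Tnni1. The median over all named genes was 0.01. The smallest adjusted p was that of Myl3, at 6.31 ± 0.28 in T+E2 and 6.79 ± 0.58 in control (SD, n = 4 each), with a difference of -0.48 and a limma adjusted p of 0.427. At an unadjusted p below 0.05, 0 members passed, against 17.9% of all named genes. Leaving out T+E2 replicate 1 took the median to -0.18 and leaving out control replicate 1 took it to -1.11.

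In T+lowBPA against control, 27 members were lower and 4 higher, with a median difference of -0.49. The smallest adjusted p was that of Tnnc1, at 5.91 ± 0.19 in T+lowBPA (n = 3) and 5.47 ± 0.23 in control (SD, n = 4), a difference of 0.44 with a limma adjusted p of 0.657. It was the 1 member with an unadjusted p below 0.05, against 7.59% of all named genes. The median was -1.52 without T+lowBPA replicate 3 and -0.07 without T+lowBPA replicate 2.

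Against control, T+highBPA had 30 members lower and 1 higher, and the median difference was -1.32, against -0.02 over all named genes. Ttn was at 5.87 ± 2.71 in T+highBPA (n = 3) and 9.25 ± 1.93 in control (SD, n = 4), a difference of -3.38 with a 95% interval of -6.74 to -0.03 and a limma adjusted p of 0.574. Myh4 was at 6.64 ± 2.64 in T+highBPA and 9.92 ± 1.87 in control, a difference of -3.28 with an interval of -6.40 to -0.16 and a limma adjusted p of 0.561. The smallest adjusted p was that of Tnnc1, 6.02 ± 0.54 in T+highBPA and 5.47 ± 0.23 in control, with a difference of 0.55 and a limma adjusted p of 0.485. An unadjusted p below 0.05 was reached by 5 members, Tnnc1, Myl3, Neb, Myh4 and Ttn, against 8.64% of all named genes. In each of the 3 comparisons with control, 0 members had groups that did not overlap, against 9.35%, 8.28% and 9.07% of all named genes for T+E2, T+lowBPA and T+highBPA.

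The plot of differences from control shows how little these comparisons could resolve. The median standard error of a member was 0.72 for T+E2 minus control, against 0.116 over all named genes, and the median 95% interval reached 1.55 to either side. For both BPA groups it reached 1.67 to either side. Smaller differences were not detectable for a typical member with these arrays. The intervals are not adjusted for the number of genes tested, so a call needed a still larger difference. In T+highBPA against control, Ttn at -3.38 and Myh4 at -3.28 were not called.

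Between the treated groups, 0 members were called in any of the 3 comparisons. T+highBPA had 29 members lower and 2 higher than T+lowBPA, with a median of -0.77, which came to 0.00 without T+lowBPA replicate 3, where 0% of all named genes were called. T+lowBPA had 20 members higher and 11 lower than T+E2, with a median of 0.02, where 3.53% of all named genes were called. The median went to -0.81 without T+lowBPA replicate 3 and to 0.57 without T+lowBPA replicate 2. T+highBPA had 27 members lower and 4 higher than T+E2, with a median of -0.68, where 10.2% of all named genes were called. The smallest adjusted p there was that of Tnni1, 5.41 ± 0.06 in T+highBPA (n = 3) and 5.72 ± 0.09 in T+E2 (SD, n = 4). Its difference was -0.31 with a limma adjusted p of 0.0619. Tnni1 was the 1 member of 31 whose 2 groups did not overlap there, against 26.7% of all named genes. Tnni1 passed the threshold without T+lowBPA replicate 2 (limma adjusted p 0.0404), and Tnnc1, higher by 0.80, passed without T+highBPA replicate 2 (limma adjusted p 0.0212).

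A further list of 49 measured skeletal muscle genes outside the members followed them in its mean, but not gene by gene. Its mean had a correlation of 0.974 with that of the members within groups. Single genes of the list ran from -0.48 in Tpm3 to 0.994 in Cmya5. The median residual SD of the list was 0.313, with 6 genes above 1. In T+E2 against control, 41 of the 49 were lower and 8 higher, and 2 (4.08%) fell past the test, against 3.23% of all named genes called. Trim63, the muscle ubiquitin ligase MuRF1 that marks myosin for breakdown, was at 7.24, 6.47, 7.49 and 7.47 in T+E2, 8.34, 8.53 and 8.39 in T+lowBPA, 8.72, 8.17 and 8.74 in T+highBPA, and 8.30, 8.38, 8.26 and 8.12 in control. All 4 T+E2 arrays lay below all 10 others. Trim63 fell by 1.10 in T+E2 against control (limma adjusted p 0.00558), and it was higher by 1.26 in T+lowBPA and by 1.38 in T+highBPA than in T+E2 (limma adjusted p 0.00266 and 0.00112). The 3 calls held when each array was left out in turn. Its correlation with the members' mean was 0.17.

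Hspb6, a small heat shock protein of all muscle types, was the other, at 9.49 ± 0.14 in T+E2 and 10.01 ± 0.12 in control (SD, n = 4 each), a difference of -0.52 with a limma adjusted p of 0.0403. That call was lost when control replicate 2, 3 or 4, T+E2 replicate 1, 2 or 4 or any T+highBPA array was left out, with an adjusted p of up to 0.117. Hspb6 was also higher by 0.63 in T+lowBPA than in T+E2 (limma adjusted p 0.0186), a call lost without T+E2 replicate 2 or T+lowBPA replicate 3. Hspb6 is also expressed in smooth muscle. The smooth muscle list stood at 8.31 ± 0.20 in T+E2 and 8.83 ± 0.26 in control (SD, n = 4 each), and 4 of its 11 genes (3.23% of all named genes were called) fell in T+E2: Actg2, Cnn1, Tagln and Pgm5, by 0.59 to 0.78. Each of these 4 calls was lost when control replicate 2 or 3 or T+E2 replicate 2 was left out, with an adjusted p of up to 0.114. Against T+E2, T+highBPA had 2 of the 11 called, where 10.2% of all named genes were: Tagln and Actg2. Tagln was higher by 1.14 (limma adjusted p 0.00346, at most 0.0208 without each array in turn). Actg2 was higher by 0.77 (limma adjusted p 0.0240). The call of Actg2 was lost without T+E2 replicate 2 or T+highBPA replicate 1 or 3, and under quantile normalization. The part of smooth muscle in the values of Hspb6 and Trim63 was not tested. In T+lowBPA and in T+highBPA against control, 0 of the 49 genes were called, against 0.0186% and 0.0062% of all named genes. In T+highBPA, 48 of the 49 were lower than in control, with a median of -0.35, against -0.02 over all named genes. An unadjusted p below 0.05 was reached by 15 of the 49, against 8.64% of all named genes. Many genes of the list moved together, so these counts are not counts of independent results. Against T+E2, T+highBPA had 4 of the 49 called (8.16%), below the 10.2% of all named genes: Trim63 and Hspb6 (0.49 higher) rose, and Myom3, an M-band protein, and Xirp1, an actin-binding repeat protein, fell by 0.39 and 0.33 (limma adjusted p 0.0225 and 0.0323). The calls of Hspb6, Myom3 and Xirp1 were lost when T+E2 replicate 1, 2 or 4 or any T+highBPA array was left out, and under quantile normalization.

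**Figure D5:**
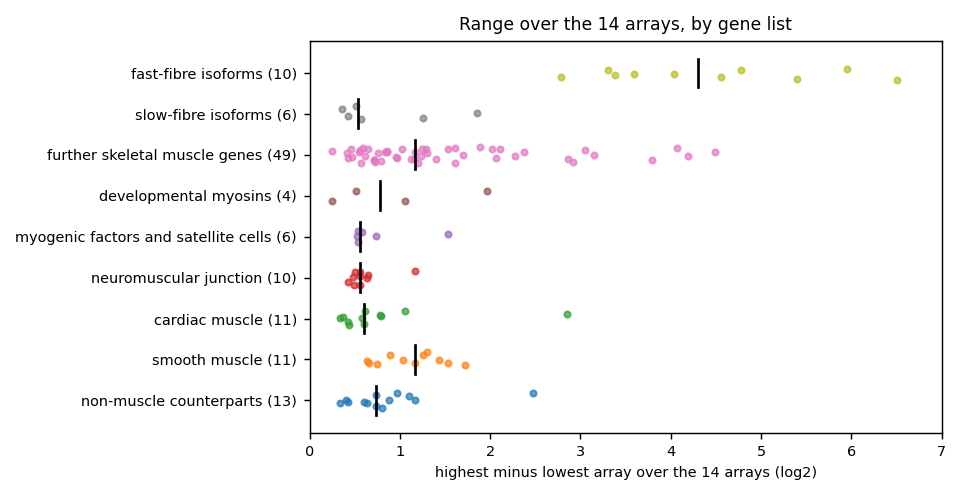
Range over the 14 arrays (highest minus lowest, log2) of each measured gene in 9 lists, with the number of genes in brackets. Points are genes, jittered up and down, and black bars are list medians. The fast-fibre median is 4.30, the slow-fibre median is 0.54 and the smooth muscle median is 1.16.

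The plot of ranges by list sets the members beside other muscle and non-muscle genes. Heart markers showed little movement: Myh6, the atrial myosin, spanned 5.10 to 5.72, Nppa, the atrial hormone, 5.47 to 6.25, and Tnni3, cardiac troponin I, 4.34 to 4.94. Of 11 cardiac genes, Actc1, cardiac α-actin, was the 1 with a residual SD above 1, and its correlation with the members' mean was 0.949. Acta1 and Actc1 are near-identical in coding sequence and their signals may be shared. Calls in the cardiac list were 1 of 11 genes (9.09%) in each comparison between T+E2 and another group, against 3.23% of all named genes for control, 3.53% for T+lowBPA and 10.2% for T+highBPA. Casq2, the calcium store protein of heart and slow fibres, fell by 0.47 in T+E2 against control (limma adjusted p 0.0348), and that call was lost when any 1 of these was left out: replicates 2, 3 and 4 of T+E2, replicates 1 and 3 of T+lowBPA and replicates 2, 3 and 4 of control, with an adjusted p of up to 0.114. Tnnt2, cardiac troponin T, was higher by 0.59 in T+lowBPA and by 0.68 in T+highBPA than in T+E2 (limma adjusted p 0.0282 and 0.00739). The call in T+highBPA held without each array in turn, and the one in T+lowBPA was lost without T+E2 replicate 2, 3 or 4 or any T+lowBPA array, with an adjusted p of up to 0.155.

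Genes of regenerating and developing muscle had narrower ranges than the fast-fibre genes, and some of them moved with the members. The median range over all named genes was 0.64. Of the 6 myogenic and satellite cell genes, Myf6, a MyoD-family factor of mature fibres, spanned 1.53, while Pax7, the satellite cell marker, spanned 0.53. Correlations of these 6 with the members' mean ran from -0.60 in Myog to 0.88 in Myf6. Myh13 and Myh8, the extraocular and perinatal heavy chains, spanned 1.97 and 1.05, with the uncertainty given above for heavy chains. Myh3 and Myh7b, the other measured heavy chains of that list, spanned 0.51 and 0.25. In this list of 4, plotted as developmental myosins, the correlation ran from -0.34 in Myh7b to 0.84 in Myh8. Myh3 was at 0.14. At the neuromuscular junction, Chrna1, the receptor's α subunit, spanned 1.17, the widest of 10 measured genes with a median range of 0.56. Their correlations with the members' mean ran from -0.50 in Musk to 0.73 in Chrna1. The mean of the 10 had a correlation of 0.02 with that of the members. In T+highBPA against T+E2, where 10.2% of all named genes were called, 1 of the 6 myogenic genes and 1 of the 10 junction genes were called: Pax7 and Chrnd, the receptor's δ subunit, fell by 0.33 and 0.32 (limma adjusted p 0.0379 and 0.0269). Both calls were lost without any 1 T+highBPA array or without T+E2 replicate 1 or 4, and under quantile normalization. The 13 measured non-muscle counterparts of members spanned 0.33 to 2.47, with a median of 0.74. The brain-type creatine kinase Ckb spanned 0.40, Actn1 0.43 and Eno1 0.97, against 2.99 for Ckm, 3.59 for Actn3 and 4.19 for Eno3.

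The widest of the 13 was Pygl, the liver glycogen phosphorylase, at 9.13 ± 0.14 in T+E2 and 7.91 ± 0.72 in control (SD, n = 4 each), a difference of 1.22 with a limma adjusted p of 0.0286. That call was lost when any 1 T+E2 array was left out, with an adjusted p of up to 0.0773. Without control replicate 4, the lowest array for Pygl, the difference was 0.86 with a limma adjusted p of 0.00814. Pygl was lower by 1.33 in T+lowBPA and by 1.34 in T+highBPA than in T+E2 (limma adjusted p 0.0238 and 0.0128), and these calls were lost without any 1 T+lowBPA array or T+E2 replicate 2, 3 or 4, and without T+highBPA replicate 2. In T+highBPA against T+E2, 4 of the 13 were called, where 10.2% of all named genes were, with Myl6 and Actb higher and Atp2a3 lower beside Pygl. Under quantile normalization the calls of Myl6, Actb and Atp2a3 were lost. Myl6 also lost its call without T+E2 replicate 1 or T+highBPA replicate 3, and Actb without T+E2 replicate 1 or 2, T+highBPA replicate 1 or 2 or control replicate 3. Atp2a3 lost its call without any 1 array of T+highBPA or T+lowBPA, T+E2 replicate 2 or 4 or control replicate 2 or 3. Hoxb13, a prostate epithelial factor, was 1 of 5 genes of its list called there, at 9.34 ± 0.19 in T+highBPA (n = 3) and 8.10 ± 0.36 in T+E2 (SD, n = 4), a difference of 1.24 with a limma adjusted p of 0.00850. Smooth muscle genes shared less of the array order, with a correlation of their mean with that of the members of 0.56, or 0.49 without the 2 farthest arrays. That of the non-muscle counterparts was 0.67 and that of the cardiac list 0.85. Within the cardiac list, Actc1 was at 0.949 and spanned 2.85, while the other genes ran from -0.61 in Tnni3 to 0.61 in Nppb. The value of the cardiac mean therefore does not describe its genes with narrow ranges. Des, the intermediate filament protein of all muscle, was at 0.859.

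Outside the members, 48 of 16103 genes had a correlation above 0.9 with the members' mean, and 18 of these were in the further skeletal muscle list. The 12 most alike, over 14 arrays, were Cmya5 (0.994), Nrap (0.990), Sh3bgr (0.981), Klhl41 (0.981), Ampd1 (0.978), Cryab (0.977), Ppp1r3a (0.972), Hrc (0.971), Cox8b (0.969), Tmod4 (0.968), Pgam2 (0.966) and Asb12 (0.958). Nrap is an actin-binding scaffold of myofibrils, Ampd1 the muscle AMP deaminase, Ppp1r3a the glycogen-targeting subunit of a muscle phosphatase, Tmod4 a cap of thin filaments and Pgam2 the muscle phosphoglycerate mutase. Of the 12, 7 were in the further list.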

How the data were processed

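The authors deposited log2 values of 17802 probe sets, computed by RMA according to the submitters' processing notes. This method subtracts background, brings the arrays to a common distribution and combines the probes of a set, which reduces brightness differences between whole arrays. Array medians of the deposited values still ran from 6.38 to 6.46. Neither the RMA version nor a build was given. TRIzol RNA had been amplified by whole-transcriptome amplification, per the labels' protocols. The log2 values ran from 2.30 to 13.65. Precision is limited by the number of arrays. A single gene symbol was paired with 16134 probe sets and none with 1668. Of the named probe sets, 16008 matched the RefSeq gene table (GRCr8), which updated 3132 symbols. Mylpf is Myl11 there.

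Groups came from the labels, which name a rat for each array. The model was fitted in R 4.3.3 with limma 3.58.1, using 1 coefficient per group over 14 arrays, 10 residual degrees of freedom and no filter, two-sided in 6 comparisons. The fit was tested on simulated data. Members and lists were chosen with earlier results of these data known, so their directions are no independent support. All members are named. Of other lists, called genes were named, as were the 12 genes most alike; the naming rule also allowed up to 3 genes with the smallest p per list, which are not listed where they were not called. Actc1, Myh6, Nppa, Nppb, Tnni3, Myf6, Myog, Myh3, Myh8, Myh13, Myh7b, Chrna1, Musk, Des and Tpm3 were named after their values were seen. The non-muscle counterparts were also named after their values were seen. Alternatives were other normalizations, filters, array weights, only the compared groups, robust empirical Bayes, the replicate number as a block, each array left out and, added after the data had been seen, the ventral prostate mean as a covariate. Deviations of same-numbered arrays correlated at -0.46 to 0.44, with 14 of 19 pairs above 0.1, against 11 of 54 pairs with different numbers. The labels state no pairing, so the main fit did not treat the numbers as pairs, and the fit with them as a block is given as an alternative. Promoter motifs were searched on both strands of RefSeq windows.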

Additional observations from a re-analysis of the deposited data

Results flagged for a closer look

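In groups of 4 arrays, a value was singled out when its gap to the nearest array took up nearly all of the group's range (Dixon's test at the 95% level). Of 98 gene and group pairs examined, 4 were singled out, and chance alone flags about 1 in 20. Myh7, the slow heavy chain, was at 6.04 in T+E2 replicate 2, against 5.84 to 5.87 in the other 3 T+E2 arrays. Tnnc1, slow troponin C, was at 5.76 in the same array, against 5.39 to 5.43. Ryr1, the calcium release channel, was at 6.58 in T+E2 replicate 3, against 5.80 to 5.91, and that array was also the T+E2 array with the highest mean of the members. Pygl, the liver glycogen phosphorylase, was at 6.82 in control replicate 4, below the 8.23 to 8.33 of control replicates 1 to 3.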

How the results depend on the processing

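The count of called members stayed at 0 under every setting tried in all comparisons but T+highBPA minus T+E2. There it was 1 with array weights (Tnni1) and 0 to 1 when each array was left out in turn. With the replicate number as a block, 0 members were called in each of the 6 comparisons and the median residual SD of the members was 0.794, against 1.21 without it. It took the calls of Casq2 and Cnn1 (T+E2 minus control), Tnnt2 (T+lowBPA minus T+E2) and Pax7, Chrnd and Actb (T+highBPA minus T+E2) past 0.05, to 0.0531 to 0.0702. Same-numbered arrays correlated above 0.1 in 14 of 19 pairs (median 0.166), against 11 of 54 pairs with different numbers (median -0.02). Same-numbered pairs ran from -0.46 to 0.44 and pairs with different numbers from -0.46 to 0.64. The labels state no pairing, and a factor shared by same-numbered arrays was not tested. Leaving out each array moved the median residual SD between 0.993 and 1.27. The median difference from control moved between -1.11 and -0.18 for T+E2, between -1.52 and -0.07 for T+lowBPA and between -1.86 and -0.99 for T+highBPA. With only the compared groups in the fit, Actg2, Cnn1, Tagln, Pgm5, Casq2 and Pygl lost their calls in T+E2 minus control, with adjusted p values of 0.0815 to 0.128. After adding the mean of the ventral prostate genes to the fit, 0 members were called, and Xirp1, Pax7 and Atp2a3 (T+highBPA minus T+E2) lost their calls, with adjusted p values of 0.0514 to 0.0735. Quantile normalization ended 10 calls and cyclic loess, another normalization, ended 11. Among them was Cnn1 in T+E2 minus control, with limma adjusted p values of 0.0561 and 0.0522. Actg2 in T+highBPA minus T+E2 was at 0.0649 and 0.0585. Cyclic loess also ended the call of Hspb6 in T+E2 minus control (limma adjusted p 0.0509). The calls of Trim63 held under every setting. Causes of these changes were not tested.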

Other observations

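Replicate 3 had a higher value than replicate 1 in all 4 groups for 26 of the 31 members, and in 7.93% of all named genes. Replicate 2 was above replicate 1 in all 4 groups for 4 members, and for 6.42% of all named genes. Replicate 3 was above replicate 2 in all 4 groups for 1 member, against 5.89%. Most members moved together, so these counts are not counts of independent results. What a replicate number stands for is not given in the labels. With the members' mean added to the fit as a covariate, a choice made after seeing the data, the number of called genes was 61 for T+highBPA minus T+lowBPA, against 0 without it. It was 2120 for T+highBPA minus T+E2, against 1639 without it, and 455 for T+E2 minus control, against 521. The same 3 comparisons had 0, 3 and 4 smooth muscle genes called with the covariate, against 0, 2 and 4 without it.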
